A study of Mus musculus with 8 samples.

Results

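Cell cycle and proliferation genes are described here as 35 of the 18395 genes counted in cold-exposed mouse adipose tissue. They were taken by symbol from a list of genes known to act in DNA replication and mitosis, a rule that uses gene function and no measured value, although the list was drawn up with earlier results of these data known. The study asked what removal of Kindlin-2, a protein that links integrins to the cytoskeleton, from brown adipocytes does to the response to cold. There were 8 bulk RNA libraries, 4 labelled WT (WT1 to WT4) and 4 labelled KO (KO1 to KO4), and every mouse had spent 6 hours at 4 °C. WT stands for the control genotype and KO for deletion of the Kindlin-2 gene, Fermt2, in brown adipocytes. The Cre line that drives the deletion, the age of the mice and the fat depot are not known from the sources used here. No label ties the libraries of a group to separate animals, and a p-value here measures only how far these 8 samples spread. Because the tissue was sequenced whole, fewer cells of a type and less RNA per cell cannot be told apart. The members were divided into 13 genes of the G1/S transition and S phase (Mcm2 to Mcm7, Pcna, Rrm1, Rrm2, Tyms, Ccne1, Ccne2 and E2f1) and 22 genes of G2 and mitosis, called S phase and mitosis members below. All 35 had enough reads to be tested, among 13901 genes tested in all.

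A dividing cell first copies its DNA and then shares it out between daughters, and most genes of each step are transcribed in a wave. E2F transcription factors, released when cyclin-dependent kinases phosphorylate the retinoblastoma protein, switch on genes for DNA replication at the G1/S boundary. Genes of G2 and mitosis are held down in resting cells by the DREAM complex, which binds the cell cycle genes homology region (CHR), and are activated later by B-MYB and FOXM1. Mature adipocytes do not divide. In brown fat, prolonged cold is known to bring preadipocytes and endothelial cells into the cycle, and immune cells in the tissue can divide as well.

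Stretches of promoter are shown for 3 mitosis members on which the results below turn and for 1 S phase member with E2F motifs. They show the sequence features that set the groups apart without any expression value. Each is the 130 bases that end just before the annotated start of transcription, on the gene's own strand, from RefSeq on build GRCm38.p6. Capitals mark the letters of a CHR element, a CCAAT box or an E2F motif on either strand.
Cdc20, chr4:118437344-118437473, minus strand: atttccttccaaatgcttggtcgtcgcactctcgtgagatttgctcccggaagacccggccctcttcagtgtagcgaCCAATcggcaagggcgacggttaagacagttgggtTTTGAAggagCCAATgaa
Top2a, chr11:99024190-99024319, minus strand: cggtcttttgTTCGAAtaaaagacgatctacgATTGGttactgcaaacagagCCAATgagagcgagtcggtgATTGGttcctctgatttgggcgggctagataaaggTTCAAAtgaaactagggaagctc
Mki67, chr7:135716380-135716509, minus strand: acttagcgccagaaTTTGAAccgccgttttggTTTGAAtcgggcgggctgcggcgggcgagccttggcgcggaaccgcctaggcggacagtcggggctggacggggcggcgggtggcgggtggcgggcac
Mcm6, chr1:128359706-128359835, minus strand: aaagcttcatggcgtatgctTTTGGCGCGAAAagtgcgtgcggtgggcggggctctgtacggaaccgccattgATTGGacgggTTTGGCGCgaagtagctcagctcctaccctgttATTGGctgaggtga

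The motifs were counted on both strands in RefSeq windows of 300 bases, 250 before and 50 after the start. Entries were matched for 28 of the 35 members and gave 30 promoters, since Mcm7 and Prc1 have 2 each; Mcm4, Ccne2, Ccna2, Aurkb, Kif20a, Tpx2 and Foxm1 had no match. The CHR letters (TTTGAA or TTCGAA) were in 14 of 18 mitosis promoters (77.8%), in 2 of 12 S phase promoters (16.7%) and in 19.2% of all 32851 promoters. From 100 bases before the start onward, a window chosen when the promoters were scanned, the shares were 77.8%, 8.33% and 8.59%. Mitosis promoters thus carried the letters close to the start, and those of Birc5, Ccnb1, Cenpe and Nusap1 did not. The E2F letters (TTTCCCGC, TTTCGCGC, TTTGCCGC or TTTGGCGC, of which some overlap, as in Mcm6) were in 4 of 12 S phase promoters (33.3%), in 1 of 18 mitosis promoters (5.56%), that of Cdk1, and in 2.26% of all promoters. A CCAAT box was in 75% of S phase promoters, 88.9% of mitosis promoters and 37.4% of all, and at least 2 of them in 41.7%, 55.6% and 11.7%. These are descriptions of letters with no test, and a match is not a bound site.

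The targeted gene was measured first. Fermt2 (ENSMUSG00000037712) stood at 239, 235, 244 and 201 CPM in WT1 to WT4 and 192, 132, 173 and 175 CPM in KO1 to KO4, where CPM, counts per 1000000, uses library sizes with TMM (trimmed mean of M values) factors. Each KO value was lower than each WT value, and the fitted log2 difference was -0.45 ± 0.14 (SE; edgeR adjusted p = 0.134) with all libraries and -0.35 ± 0.12 (edgeR adjusted p = 0.125) without KO2. DESeq2 called Fermt2 lower in KO in both fits (adjusted p = 0.0336 and 0.0388). Library totals ran from 33672272 to 43253559 counts in WT and from 35734373 to 40927141 in KO. Ucp1 (ENSMUSG00000031710), the uncoupling protein that defines brown and beige adipocytes, lay between 1792 and 6576 CPM, so this defining marker was present in all 8 libraries. A pair of libraries stood apart in their rank correlation with the rest, WT3 (median Spearman 0.932) and KO2 (0.958), against 0.969 to 0.981 for the other 6. Skeletal muscle markers summed to 34900 CPM in WT3, 224 CPM in WT4 and 211 CPM in KO2, and to between 3.29 and 25.4 CPM in the rest. Since KO2 also stood apart in the members, their fold changes are given with it and without it.

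Every one of the 35 members had a higher mean in KO than in WT with all 8 libraries, and the mitosis members differed more than the S phase members. The median log2 fold change was 1.44 over the 22 mitosis members (range 0.38 to 2.62) and 0.45 over the 13 S phase members (0.00448 to 1.30), against 0.00362 over all genes tested. Of all genes tested, 50.5% lay above 0. The difference between the medians of the groups was 0.99. Without KO2 the mitosis median was 0.43 (-0.69 to 1.11), the S phase median 0.10 (-0.25 to 0.66) and their difference 0.33, while the median of all genes was -0.0176. In that fit 20 of 22 mitosis members and 9 of 13 S phase members lay above 0, against 48.3% of all genes. Without both KO2 and WT3 the medians were 0.63 and 0.06. The order of the groups was thus the same with and without KO2, while both medians were smaller without it.

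No member passed the edgeR test over all genes with TMM scaling, while DESeq2 called a few. edgeR's quasi-likelihood test called 0 of 35 members at an adjusted p under 0.05 (smallest 0.122, Cdc20), as it called 0% of all 13901 genes. At an unadjusted p under 0.05 it picked 10 members, all higher in KO (28.6%), against 10.4% of all genes higher in KO at that level; 9 of the 10 were mitosis members and the other was Mcm3. Without KO2 it called 0 members (smallest adjusted p 0.118), while 1.70% of all genes were called higher. At an unadjusted p it then picked 4 members, Top2a, Cdc20, Plk1 and Foxm1 (11.4%), against 11.8% of all genes. All 4 were mitosis members (18.2% of 22), and 0 of 13 S phase members were picked. Over all 35 members the share was no higher than the background. DESeq2 with all libraries called 4 of the 28 members for which it gave an adjusted p, Cdc20 (0.0162), Foxm1 (0.0336), Plk1 (0.0337) and Cenpf (0.0398), against 4.0% of all genes called higher. It gave no p, adjusted or not, for Mki67, Top2a, Aurkb, Birc5, Ube2c, Ccnb1 and Ccne1. Each of these was highest in KO2 and had an unadjusted p again without KO2. The 28 members therefore leave out some with high levels in KO2. Without KO2, DESeq2 called 1 of 30, Cdc20 (adjusted p = 0.0490), against 6.53% of all genes.

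**Figure D1:**
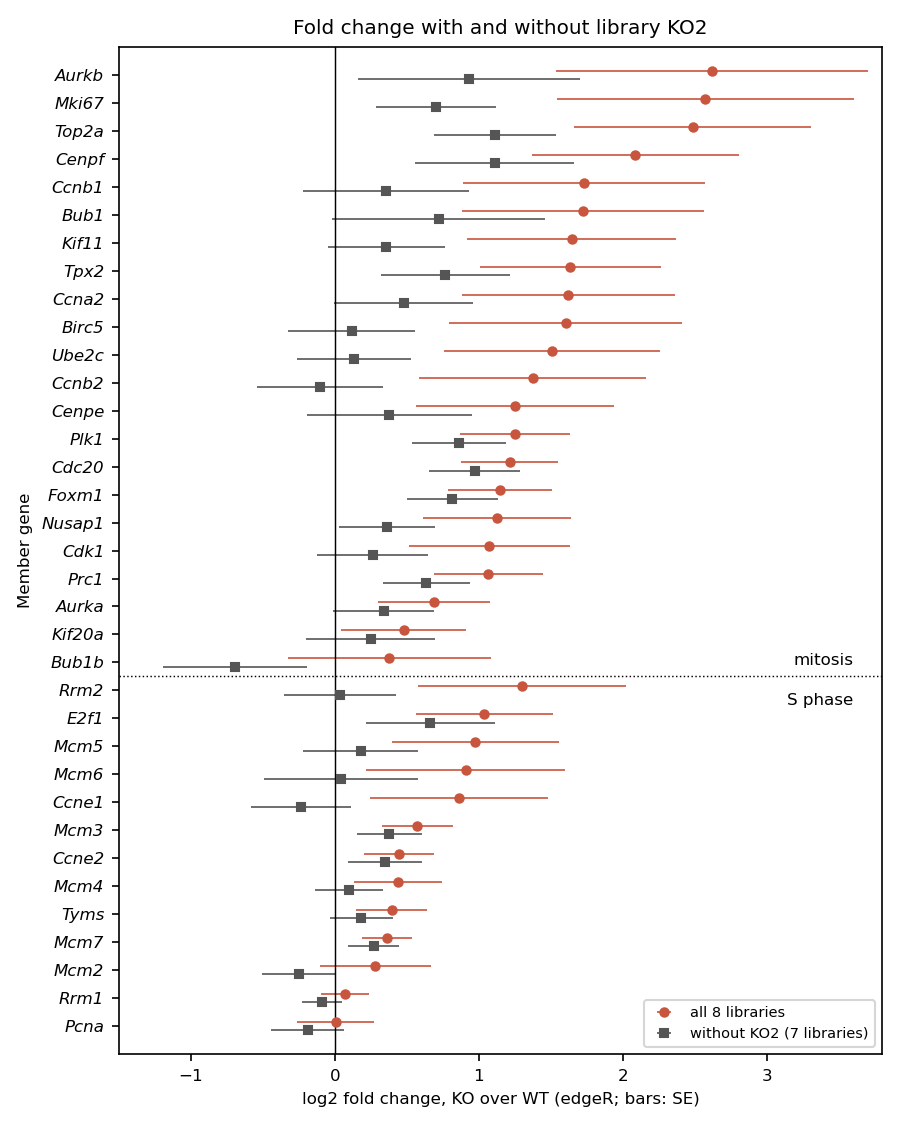
Log2 fold change of each member, KO over WT, from edgeR, with all 8 libraries (circles) and without KO2 (squares). Bars are standard errors, mitosis members stand above the dotted line and S phase members below it. With all libraries every point lies at or above 0, and without KO2 the points move left, 6 of them below 0.

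Separation of the libraries gave the same picture. All 4 KO libraries lay above all 4 WT libraries for 3 members, Cdc20, Plk1 and Prc1 (8.57%), against 5.80% of all genes. KO1, KO3 and KO4 lay above all WT libraries for the same 3 members, against 12.1% of all genes. All 3 were mitosis members (13.6% of 22). KO2 was the highest of the 8 libraries for 33 of 35 members (94.3%), against 18.2% of all genes, and the exceptions were Mcm7 and Kif20a, both highest in KO1. In KO2 the level was 4.55 times the median of the other 3 KO libraries at the median mitosis member (1.97 for Cdc20 to 11.9 for Mki67). At the median S phase member it was 2.03 times (1.25 for Ccne2 to 6.53 for Mcm6). The members took 0.0452% of all counts in KO2, or 18494 counts, and 0.0105% to 0.0194% in the other 7 libraries, or 3825 to 7285 counts.

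**Figure D2:**
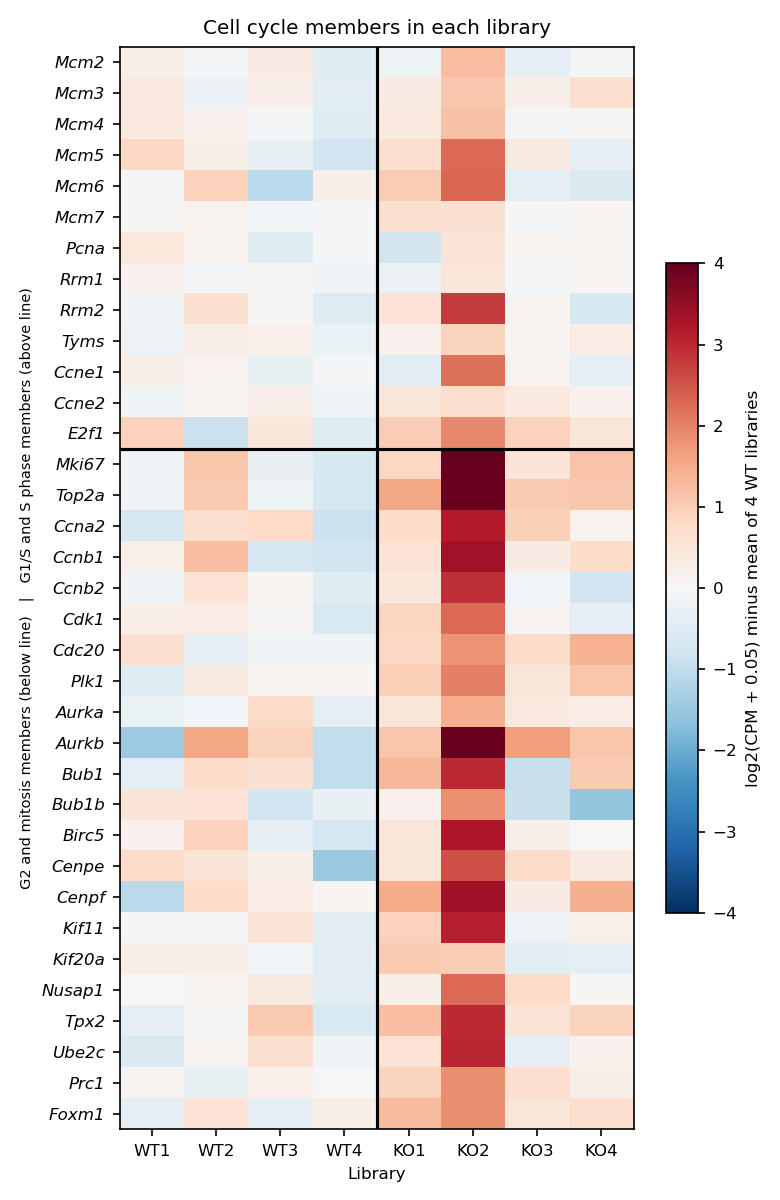
Level of each member in each library, as log2(CPM + 0.05) minus the mean of the 4 WT libraries (colour scale from -4 to 4). Rows above the black line are S phase members and rows below are mitosis members. The KO2 column is red in nearly every row, most deeply among mitosis members, and the other KO columns are paler and mixed.

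The replication helicase is built from 6 MCM proteins, which are loaded on DNA in G1 and unwind it in S phase. Their genes did not move as a block across libraries. Mcm6 (ENSMUSG00000026355) stood at 3.57, 7.14, 1.74 and 4.45 CPM in WT1 to WT4 and 7.697, 18.7, 2.86 and 2.49 CPM in KO1 to KO4. KO2 was highest, KO1 next and close to WT2, while KO3 and KO4 lay within the WT range. The log2 fold change was 0.91 ± 0.69 (SE; edgeR adjusted p = 0.454) and 0.04 ± 0.54 without KO2. Mcm5 (ENSMUSG00000005410) had 6.33, 4.17, 2.85 and 2.09 CPM in WT1 to WT4 and 5.78, 17.3, 4.54 and 2.76 CPM in KO1 to KO4, so that KO2 alone lay above the highest WT library; its log2 fold change was 0.98 ± 0.58 (SE; edgeR adjusted p = 0.342) and 0.18 without KO2. Mcm3 (ENSMUSG00000041859) ranged from 6.31 to 11.1 CPM in WT, 10.1 to 13.3 CPM in KO1, KO3 and KO4 and 17.99 CPM in KO2, and KO2 and KO4 lay above all WT libraries. It was the S phase member with the smallest p, at 0.57 ± 0.25 (SE; edgeR adjusted p = 0.221) with all libraries and 0.38 ± 0.23 (edgeR adjusted p = 0.348) without KO2.

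With all libraries, the remaining helicase genes had smaller log2 fold changes than those above, an order that did not hold without KO2. Mcm2 lay at 2.96 to 5.26 CPM in WT, 3.15 to 3.99 CPM in KO1, KO3 and KO4 and 10.03 CPM in KO2, and its log2 fold change of 0.28 ± 0.39 was -0.25 without KO2. Mcm4 lay at 4.65 to 8.58 CPM in WT, 6.28 to 8.55 CPM in KO1, KO3 and KO4 and 14.9 CPM in KO2, with 0.44 ± 0.30 and 0.10. Mcm7 lay at 21.9 to 25.9 CPM in WT, 22.8 to 37.8 CPM in KO1, KO3 and KO4 and 35.8 CPM in KO2, with 0.36 ± 0.17 and 0.27. For Mcm7, KO1 and KO2 lay above all WT libraries, and KO3 and KO4 did not. Adjusted p in edgeR was 0.692, 0.406 and 0.255 for Mcm2, Mcm4 and Mcm7 with all libraries.

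Pcna encodes the sliding clamp that holds DNA polymerase on its template, and its mean level was nearly the same in both groups with all libraries. Pcna (ENSMUSG00000027342) stood at 33.5, 27.4, 17.9 and 24.2 CPM in WT1 to WT4 and 15.1, 35.6, 26.2 and 26.4 CPM in KO1 to KO4. The lowest library (KO1) and the highest (KO2) were both KO, and the groups overlapped fully. The WT mean was 25.7 CPM with an SD of 6.49, and the KO mean 25.8 CPM with an SD of 8.36 (n = 4 each), with a log2 fold change of 0.00448 ± 0.27 (edgeR adjusted p = 0.995) and -0.19 ± 0.25 (edgeR adjusted p = 0.689) without KO2. A pseudogene copy, Pcna-ps2, is listed in the same table at 0.6002, 6.08, 10.8 and 5.53 CPM in WT1 to WT4 and 11.3, 7.49, 6.26 and 5.03 CPM in KO1 to KO4. The sources used here do not say how reads shared between such copies were assigned, so the Pcna values are uncertain.

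Ribonucleotide reductase makes the building blocks of DNA, with Rrm1 as its large subunit and Rrm2 as the small one that is made mainly in S phase. Rrm2 (ENSMUSG00000020649) stood at 1.59, 2.88, 1.88 and 1.26 CPM in WT1 to WT4 and 2.696, 12.9, 1.98 and 1.16 CPM in KO1 to KO4. KO2 lay far above the other 7 libraries, which overlapped, and the level in KO2 was 6.495 times the median of the other KO libraries. Its log2 fold change was 1.30 ± 0.72 (SE; edgeR adjusted p = 0.314) and 0.04 ± 0.39 without KO2. Rrm1 lay at 18.9 to 23.8 CPM in WT, 17.7 to 22.01 CPM in KO1, KO3 and KO4 and 29.3 CPM in KO2, with 0.07 ± 0.17 (SE; edgeR adjusted p = 0.821) and -0.09 without KO2. The subunits therefore differed in KO2, where Rrm1 was 1.48 times the other KO median. Tyms, thymidylate synthase, lay at 3.19 to 4.61 CPM in WT, 4.14 to 4.73 CPM in KO1, KO3 and KO4 and 7.22 CPM in KO2, with 0.40 ± 0.25 (SE; edgeR adjusted p = 0.358) and 0.18 without KO2.

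The G1/S regulators among the members are the E cyclins, which activate CDK2, and E2f1, an activator of the replication genes. Ccne1 (ENSMUSG00000002068) stood at 1.38, 1.28, 0.938 and 1.11 CPM in WT1 to WT4 and 0.8296, 5.56, 1.28 and 0.887 CPM in KO1 to KO4. Outside KO2 its KO libraries lay within or below the WT range, and the log2 fold change of 0.86 ± 0.62 became -0.24 ± 0.35 without KO2. Ccne2 (ENSMUSG00000028212) had 1.74, 2.07, 2.41 and 1.76 CPM in WT1 to WT4 and 2.77, 3.26, 2.62 and 2.22 CPM in KO1 to KO4; 3 KO libraries lay above all WT libraries, with 0.45 ± 0.24 (SE; edgeR adjusted p = 0.303) and 0.35 without KO2. E2f1 (ENSMUSG00000027490) had 2.28, 0.627, 1.64 and 0.829 CPM in WT1 to WT4 and 2.397, 4.67, 2.299 and 1.68 CPM in KO1 to KO4. WT varied widely for E2f1 and KO4 lay inside that range, with 1.04 ± 0.48 (SE; edgeR adjusted p = 0.239) and 0.66 ± 0.45 without KO2, the highest value of an S phase member in that fit.

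Among the mitosis members, Cdc20 had the smallest p with and without KO2. CDC20 activates the anaphase-promoting complex, the ubiquitin ligase that starts the separation of chromosomes. Cdc20 (ENSMUSG00000006398) stood at 3.001, 1.504, 1.67 and 1.66 CPM in WT1 to WT4 and 3.39, 6.66, 3.15 and 4.98 CPM in KO1 to KO4. Every KO library lay above every WT library, although WT1 came close to KO3, and WT1 stood above the other 3 WT libraries. The WT mean was 1.96 CPM with an SD of 0.699, and the KO mean 4.55 CPM with an SD of 1.63 (n = 4 each). The log2 fold change was 1.21 ± 0.34 (SE; edgeR adjusted p = 0.122), and 0.97 ± 0.32 (edgeR adjusted p = 0.118) without KO2. Its promoter is the first of those printed above, with a CHR element between a pair of CCAAT boxes.

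Plk1 encodes polo-like kinase 1, which drives entry into mitosis and spindle assembly. Plk1 (ENSMUSG00000030867) stood at 0.8103, 1.54, 1.24 and 1.23 CPM in WT1 to WT4 and 2.33, 4.87, 1.66 and 2.59 CPM in KO1 to KO4. KO3 lay just above WT2, and the other KO libraries were well clear of WT. The log2 fold change was 1.25 ± 0.38 (SE; edgeR adjusted p = 0.139), and 0.86 ± 0.33 (edgeR adjusted p = 0.1603) without KO2. Prc1 (ENSMUSG00000038943), which bundles the microtubules of the central spindle for cytokinesis, had 1.41, 1.07, 1.54 and 1.31 CPM in WT1 to WT4 and 2.49, 4.94, 2.14 and 1.58 CPM in KO1 to KO4. The groups did not overlap, but KO4 and WT3 were separated by little. Prc1 differed by 1.07 ± 0.38 (SE; edgeR adjusted p = 0.169) on the log2 scale, and 0.64 ± 0.30 (edgeR adjusted p = 0.243) without KO2.

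Foxm1 encodes the transcription factor that activates many of these genes in G2. Foxm1 (ENSMUSG00000001517) stood at 1.801, 3.42, 1.78 and 2.74 CPM in WT1 to WT4 and 5.69, 8.71, 3.29 and 3.87 CPM in KO1 to KO4. KO1, KO2 and KO4 lay above all WT libraries, and KO3 lay just under WT2. The log2 fold change was 1.15 ± 0.36 (SE; edgeR adjusted p = 0.145), and 0.82 ± 0.32 (edgeR adjusted p = 0.171) without KO2. These 4 genes, Cdc20, Plk1, Prc1 and Foxm1, were among the mitosis members least raised in KO2: the level there was 1.97, 2.09, 2.31 and 2.25 times that of the median other KO library.

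**Figure D3:**
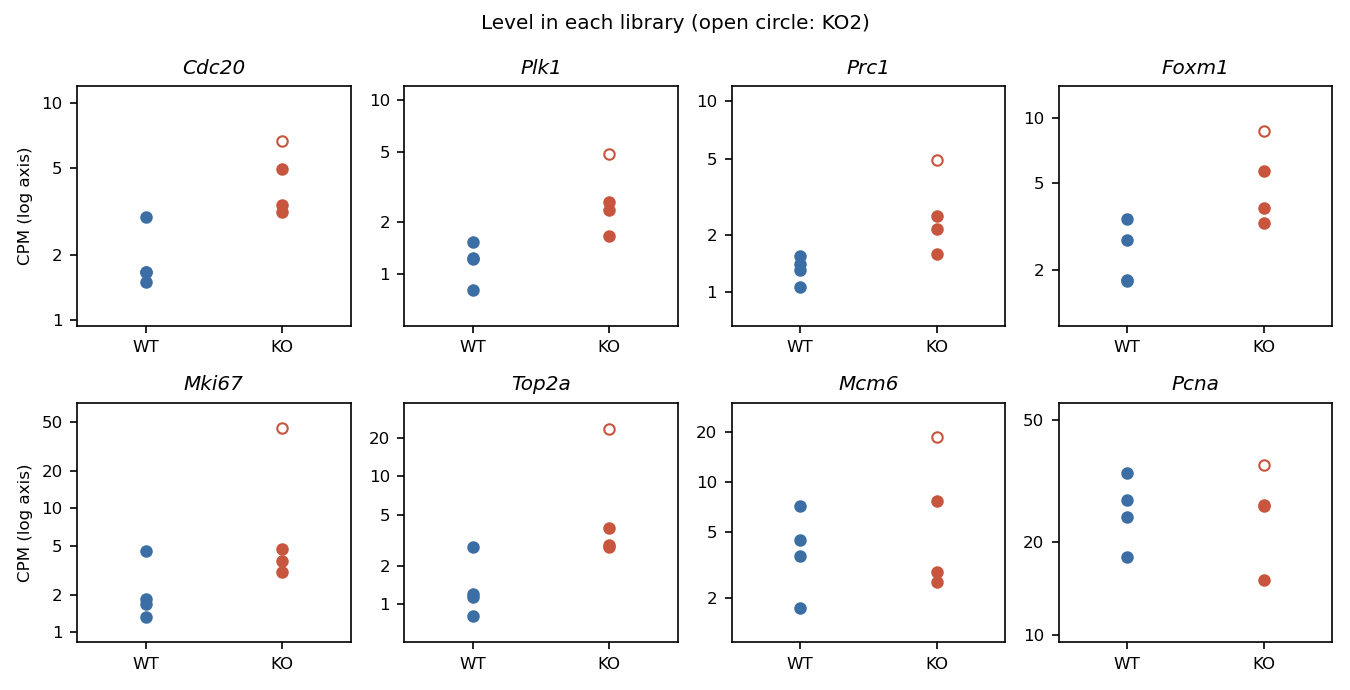
Level of 8 members in each library, in CPM on a log axis, with WT in blue, KO in red and KO2 as an open circle. For Cdc20, Plk1 and Prc1 all red points lie above all blue points. For Mki67 and Top2a the open circle lies far above the rest, and for Pcna the groups overlap.

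The largest differences with all libraries belonged to Aurkb, Mki67 and Top2a, and rested mostly on KO2. Mki67 encodes Ki-67, the protein used to stain cycling cells. Mki67 (ENSMUSG00000031004) stood at 1.86, 4.54, 1.71 and 1.33 CPM in WT1 to WT4 and 3.76, 44.6, 3.05 and 4.71 CPM in KO1 to KO4. KO2 was 11.9 times the median of the other KO libraries, and among the other 7 libraries WT2 lay inside the KO range. The log2 fold change was 2.57 ± 1.03 (SE; edgeR adjusted p = 0.213), and 0.70 ± 0.42 (edgeR adjusted p = 0.344) without KO2. Top2a encodes topoisomerase II alpha, which untangles DNA before chromosomes part. Top2a (ENSMUSG00000020914) had 1.200, 2.82, 1.14 and 0.804 CPM in WT1 to WT4 and 3.96, 23.7, 2.81 and 2.88 CPM in KO1 to KO4. KO3 lay level with WT2 and the other KO libraries above it; without KO2 the log2 fold change of 2.49 ± 0.82 became 1.11 ± 0.42 (edgeR adjusted p = 0.162).

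The aurora kinases set up the spindle (Aurka) and correct attachments at the centromere (Aurkb), where Birc5 (survivin) is a partner of Aurkb in the chromosomal passenger complex. Aurkb (ENSMUSG00000020897) stood at 0.06002, 0.815, 0.502 and 0.101 CPM in WT1 to WT4 and 0.599, 6.904, 0.909 and 0.592 CPM in KO1 to KO4. It rests on few reads, 2 to 26 counts in WT, and KO2 was at 11.5 times the median of the other KO libraries. Its log2 fold change was 2.62 ± 1.08 (SE; edgeR adjusted p = 0.213), and 0.93 ± 0.77 (edgeR adjusted p = 0.492) without KO2. Aurka lay at 1.16 to 2.58 CPM in WT, 1.85 to 2.14 CPM in KO1, KO3 and KO4 and 4.22 CPM in KO2, with WT3 highest in WT; it had 0.69 ± 0.39 (SE; edgeR adjusted p = 0.315) and 0.34 without KO2. Birc5 lay at 0.653 to 2.099 CPM in WT, 1.08 to 1.54 CPM in KO1, KO3 and KO4 and 10.7 CPM in KO2. Outside KO2 the groups overlapped for Birc5, and its log2 fold change went from 1.6 ± 0.81 to 0.12 ± 0.44.

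Cdk1 is the kinase of mitotic entry, and cyclins A2, B1 and B2 are its activators. Cdk1 lay at 0.955 to 1.82 CPM in WT, 1.13 to 2.72 CPM in KO1, KO3 and KO4 and 7.31 CPM in KO2, with 1.07 ± 0.56 (SE; edgeR adjusted p = 0.284) and 0.26 without KO2. Ccna2 lay at 0.628 to 2.08 CPM in WT, 1.31 to 2.299 CPM in KO1, KO3 and KO4 and 10.9 CPM in KO2, with 1.62 ± 0.74 (SE; edgeR adjusted p = 0.239) and 0.48. Ccnb1 lay at 0.251 to 1.13 CPM in WT, 0.588 to 0.789 CPM in KO1, KO3 and KO4 and 5.16 CPM in KO2, with 1.73 ± 0.84 (SE; edgeR adjusted p = 0.259) and 0.35. In all 3, KO2 stood alone and the other KO libraries overlapped WT. Ccnb2 (ENSMUSG00000032218) stood at 0.9004, 1.504, 1.07 and 0.703 CPM in WT1 to WT4 and 1.41, 7.91, 0.936 and 0.567 CPM in KO1 to KO4, and outside KO2, KO1 and KO3 lay inside the WT range and KO4 below it. Its log2 fold change was 1.38 ± 0.79 with KO2 and -0.10 ± 0.44 without it. Pseudogene copies of both B cyclins are in the table, Ccnb1-ps at 0 to 0.536 CPM and Ccnb2-ps at 0.804 to 2.16 CPM, and shared reads could be split between copies.

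Bub1 and Bub1b encode kinases of the spindle checkpoint, which holds the anaphase-promoting complex until every chromosome is attached. Both were highest in KO2. With group as the only term, edgeR gave their fold changes the same sign with all libraries and opposite signs without KO2, a difference that was not tested. Bub1b was also negative in some alternative fits that kept KO2 (-0.073 with limma-voom, -0.97 with sample quality weights and -0.10 with a replicate block). Bub1b (ENSMUSG00000040084) stood at 2.94, 3.01, 1.17 and 1.66 CPM in WT1 to WT4 and 2.33, 7.33, 1.07 and 0.665 CPM in KO1 to KO4. Outside KO2, KO3 and KO4 were the lowest libraries and KO1 lay inside the WT range. The log2 fold change was 0.38 ± 0.71 (SE; edgeR adjusted p = 0.777), and -0.69 ± 0.50 (edgeR adjusted p = 0.431) without KO2, the lowest value of any member in that fit. Bub1 (ENSMUSG00000027379) had 0.1801, 0.439, 0.402 and 0.101 CPM in WT1 to WT4 and 0.691, 2.301, 0.107 and 0.567 CPM in KO1 to KO4, from 4 to 14 counts in WT. KO1, KO2 and KO4 lay above all WT libraries and KO3 near the bottom, with 1.72 ± 0.84 (SE; edgeR adjusted p = 0.259) and 0.72 ± 0.74 without KO2. Ube2c, the ubiquitin-conjugating enzyme of the anaphase-promoting complex, lay at 0.7803 to 1.84 CPM in WT, 0.936 to 1.77 CPM in KO1, KO3 and KO4 and 9.94 CPM in KO2, with 1.51 ± 0.75 and 0.13 without KO2.

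Kinetochore and spindle genes differed from the other libraries in KO2 to different degrees. Cenpf, a kinetochore protein of G2 and mitosis, stood at 0.1501, 0.658, 0.469 and 0.402 CPM in WT1 to WT4 and 1.15, 4.42, 0.481 and 1.08 CPM in KO1 to KO4. WT1 was low at 5 counts, and KO1, KO2 and KO4 lay above all WT libraries. Cenpf differed by 2.09 ± 0.72 (SE; edgeR adjusted p = 0.164) on the log2 scale, and 1.11 ± 0.55 (edgeR adjusted p = 0.267) without KO2. Cenpe, a kinetochore motor, lay at 0.126 to 0.7803 CPM in WT, 0.592 to 0.802 CPM in KO1, KO3 and KO4 and 2.93 CPM in KO2, with 1.25 ± 0.69 and 0.38. Kif11, the motor that pushes spindle poles apart, lay at 0.729 to 1.47 CPM in WT, 0.882 to 1.98 CPM in KO1, KO3 and KO4 and 9.14 CPM in KO2, with 1.64 ± 0.73 and 0.36. In neither did KO1, KO3 and KO4 separate from WT.

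Tpx2, which activates Aurora A on the spindle, lay at 0.653 to 2.18 CPM in WT, 1.497 to 2.397 CPM in KO1, KO3 and KO4 and 8.36 CPM in KO2, with 1.64 ± 0.63 (SE; edgeR adjusted p = 0.192) and 0.77 ± 0.45 without KO2. Within WT, WT3 was the highest for Tpx2, and without both WT3 and KO2 the log2 fold change was 1.28 ± 0.37 (edgeR adjusted p = 0.0841). Nusap1, a microtubule-binding spindle protein, lay at 0.9797 to 1.78 CPM in WT, 1.43 to 2.35 CPM in KO1, KO3 and KO4 and 6.82 CPM in KO2, with 1.13 ± 0.51 and 0.36. Kif20a (ENSMUSG00000003779), a motor of the central spindle, stood at 1.38, 1.38, 1.07 and 0.854 CPM in WT1 to WT4 and 2.42, 2.35, 0.855 and 0.887 CPM in KO1 to KO4. KO1 and KO2 lay together above WT and KO3 and KO4 at its lower end, with 0.48 ± 0.43 (SE; edgeR adjusted p = 0.534) and 0.25 without KO2.

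The contrast of S phase with mitosis members was also read in each library, as the mean log2 CPM of each group. For S phase members it was 2.52, 2.40, 2.24 and 2.01 in WT1 to WT4 and 2.57, 3.69, 2.40 and 2.28 in KO1 to KO4. Mitosis members had means of -0.05, 0.57, 0.26 and -0.39 in WT1 to WT4 and 0.93, 2.82, 0.42 and 0.50 in KO1 to KO4. KO2 was the highest library in both, KO1 was second in both, and WT4 was the lowest in both. The mitosis mean minus the S phase mean, which is of use only between libraries since it mixes genes of different length, was -2.58, -1.83, -1.98 and -2.40 in WT. In KO1 to KO4 it was -1.64, -0.87, -1.98 and -1.78. KO1, KO2 and KO4 lay above every WT library in this difference and KO3 lay beside WT3. Group means of the difference were -2.20 ± 0.35 in WT and -1.57 ± 0.48 in KO (SD, n = 4), and -1.798 ± 0.17 in KO without KO2 (SD, n = 3). No p is given for such scores, because the members were chosen with results of these data known.

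**Figure D4:**
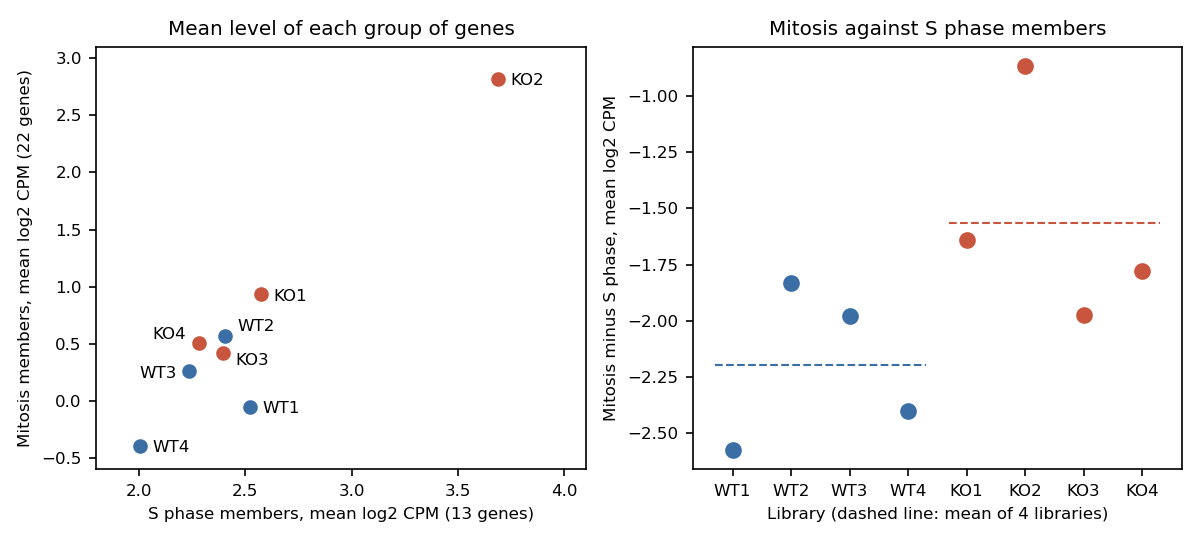
Left, mean log2 CPM of the 13 S phase members (x) and of the 22 mitosis members (y) in each library. Right, the mitosis mean minus the S phase mean by library, with group means as dashed lines. KO2 lies apart at the top right (3.69 and 2.82), and the other KO points lie among or just above the WT points.

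The WT libraries differed among themselves as well. Of 22 mitosis members, 18 lay above their WT mean in WT2, 14 in WT3, 9 in WT1 and 3 in WT4, and WT4 had the lowest level of all 8 libraries for 13 of them. In KO the numbers above the WT mean were 22 in KO1, 22 in KO2, 16 in KO3 and 17 in KO4. For S phase members the numbers were 9, 9, 7 and 1 of 13 in WT1 to WT4 and 9, 13, 8 and 8 in KO1 to KO4. Leaving out KO2, KO1 was the highest library for 9 mitosis members and 4 S phase members, and WT1 was the highest for 5 S phase members. Summed over the mitosis members, the level was 20.1 to 36.5 CPM in WT, 34.7 to 47.7 CPM in KO1, KO3 and KO4 and 200 CPM in KO2. Over the S phase members the sums were 94.3 to 126 CPM, 108 to 120 CPM and 213 CPM. Outside KO2 the S phase sums of KO lay inside the WT range, and the mitosis sums overlapped it through KO3.

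Wider lists of cell cycle genes, none of them members, showed the same contrast. Of 47 further S phase genes 44 were tested, of which 34 lay higher and 10 lower with all libraries (median 0.40) and 25 higher and 19 lower without KO2 (median 0.08). edgeR called 0 of them in either fit, with 8 higher at an unadjusted p under 0.05 with all libraries, where 10.4% of all genes were. DESeq2 called 3 of the 42 it tested with all libraries and 1 of 37 without KO2, against 4.0% and 6.53% of all genes. Pold3 (ENSMUSG00000030726), a subunit of DNA polymerase delta, stood at 13.6, 13.5, 11.99 and 10.7 CPM in WT1 to WT4 and 21.6, 25.2, 16.3 and 19.4 CPM in KO1 to KO4. All KO libraries lay above WT, with 0.73 ± 0.16 (SE; edgeR adjusted p = 0.0981) and 0.62 ± 0.15 (edgeR adjusted p = 0.0645) without KO2. Atad2, a chromatin ATPase, had 0.64 ± 0.18 (SE; edgeR adjusted p = 0.123) and 0.52 ± 0.17 (edgeR adjusted p = 0.124).

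Of 56 further mitosis genes 54 were tested, of which 50 lay higher and 4 lower with all libraries (median 1.19) and 43 higher and 11 lower without KO2 (median 0.49). edgeR called 0 with all libraries (29 higher at an unadjusted p under 0.05, where 10.4% of all genes were) and 2 without KO2, both higher, against the 1.70% of all genes given above. DESeq2 called 13 of the 46 it tested with all libraries and 5 of 32 without KO2, all higher, against 4.0% and 6.53% of all genes. The pair that rose without KO2 was Lbr and Kif23. Lbr (ENSMUSG00000004880), the lamin B receptor of the nuclear envelope, stood at 15.6, 13.9, 14.5 and 13.3 CPM in WT1 to WT4 and 28.6, 28.3, 20.2 and 25.2 CPM in KO1 to KO4. KO2 was no higher than KO1, all KO libraries lay above all WT libraries, and the log2 fold change was 0.83 ± 0.14 (SE; edgeR adjusted p = 0.0874) and 0.78 ± 0.15 (edgeR adjusted p = 0.0362) without KO2. Kif23 (ENSMUSG00000032254), a kinesin of the central spindle needed for cytokinesis, stood at 2.82, 2.26, 2.68 and 1.66 CPM in WT1 to WT4 and 5.58, 5.99, 4.36 and 5.96 CPM in KO1 to KO4. Its KO libraries were alike and all above WT, with 1.22 ± 0.24 (SE; edgeR adjusted p = 0.0915) and 1.17 ± 0.25 (edgeR adjusted p = 0.0475) without KO2. In all, 14 of the 54 had every KO library above every WT library, against the 5.80% of all genes given above.

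Regulators upstream of the waves were divided between higher and lower. Of 9 genes for D cyclins, their kinases and the retinoblastoma family, 6 lay higher and 3 lower (median 0.18, and 0.04 without KO2), and edgeR called 0 in either fit. Ccnd2 (ENSMUSG00000000184), cyclin D2, stood at 20.9, 19.1, 22.4 and 22.7 CPM in WT1 to WT4 and 25.5, 27.04, 36.3 and 39.2 CPM in KO1 to KO4. KO3 and KO4, not KO2, were highest, with 0.59 ± 0.16 (SE; edgeR adjusted p = 0.118) and 0.66 ± 0.16 (edgeR adjusted p = 0.0609) without KO2; DESeq2 called it in both fits (adjusted p = 0.0288 and 0.0115). Of 6 CDK inhibitors tested, 4 lay higher and 2 lower (median 0.05, and -0.04 without KO2), again with 0 called by edgeR. Cdkn2b, an inhibitor of CDK4 and CDK6, had -1.20 ± 0.39 (SE; edgeR adjusted p = 0.153) and -1.24 ± 0.43 (edgeR adjusted p = 0.138) without KO2. The E2F and DREAM regulators had 6 higher and 8 lower of 14 (median -0.08, and -0.11 without KO2), with Tfdp2 (ENSMUSG00000032411), a dimer partner of E2F proteins, at -0.46 ± 0.13 (SE; edgeR adjusted p = 0.122) and -0.49 ± 0.14 (edgeR adjusted p = 0.0936) without KO2. The anaphase-promoting complex and its inhibitor had 5 higher and 10 lower of 15 (median -0.04, and -0.08 without KO2). Anapc2, a subunit of the complex, had the smallest p of this list in both edgeR fits. It was at 0.39 ± 0.12 (SE; edgeR adjusted p = 0.144) and 0.41 ± 0.13 (edgeR adjusted p = 0.116) without KO2, with every KO library above every WT library. The inhibitor Fbxo5 was at 0.97 ± 0.34 (SE; edgeR adjusted p = 0.169) and 0.73 ± 0.33 (edgeR adjusted p = 0.223) without KO2. At an unadjusted p under 0.05 with all libraries, edgeR picked 1, 0, 0 and 2 genes higher in these lists. It picked 0, 1, 2 and 1 lower, against 1450 higher and 1543 lower of all 13901 genes. DESeq2 called Ccnd2 higher and Tfdp2 lower in both fits and no other gene of these 4 lists. Among all genes that edgeR also tested, DESeq2 called 511 higher and 600 lower of 12771. Without KO2 it called 809 higher and 735 lower of 12383.

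Markers of other cells in the tissue moved with the members in KO2. T and NK cell markers summed to 6.58 to 45.5 CPM in WT, 27.9 to 57.0 CPM in KO1, KO3 and KO4 and 272 CPM in KO2, where all 14 of 14 were at their highest. Cd3e, a chain of the T cell receptor complex, stood at 0.660, 0.439, 4.12 and 0.126 CPM in WT1 to WT4 and 0.691, 7.999, 2.49 and 1.08 CPM in KO1 to KO4. Interferon response genes summed to 233 to 553 CPM in WT, 320 to 387 CPM in the other KO libraries and 5020 CPM in KO2, which was highest for 17 of 17. KO2 was also highest for 9 of 10 dendritic cell markers (1830 CPM, against 380 to 514 in WT and 571 to 977 in the other KO libraries). Clec9a, the first of them as listed, stood at 2.97, 5.70, 3.45 and 4.35 CPM in WT1 to WT4. In KO1 to KO4 it stood at 8.87, 10.3, 6.20 and 9.32 CPM, so KO2 was only 1.17 times the other KO median for Clec9a. KO2 was highest for 9 of 10 macrophage markers as well (658 CPM, against 195 to 303 and 232 to 349). Of all genes tested, 18.2% were highest in KO2. No marker of these lists was at 0 in every library. Their part in the level of the members in KO2 was not tested.

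Of the remaining lists, summed levels peaked in KO2 only for B and plasma cells. B and plasma cell markers were highest in KO2 for 2 of 7 (24.5 CPM summed, against 3.78 to 12.1 CPM in WT and 10.3 to 15.2 CPM in the other KO libraries), and neutrophil markers for 0 of 6 (5.21 CPM, against 2.19 to 5.31 and 3.62 to 8.90). Endothelial markers summed to 1760 to 2340 CPM in WT, 2860 to 3760 CPM in KO1, KO3 and KO4 and 2150 CPM in KO2. For 11 of 13 of them KO1, KO3 and KO4 lay above all WT libraries, against 12.1% of all genes. Mural and smooth muscle markers summed to 957 to 1180, 1290 to 1380 and 838 CPM in the same order, and fibroblast and progenitor markers to 865 to 1730, 1040 to 1360 and 1190 CPM. Erythroid markers ran from 388 to 916, 593 to 993 and 480 CPM. Brown adipocyte markers summed to 8880 to 11000 CPM in WT, 6440 to 8760 CPM in KO1, KO3 and KO4 and 5390 CPM in KO2, and general adipocyte markers to 22900 to 26800, 19400 to 24100 and 18300 CPM. KO1, KO3 and KO4 thus had endothelial, dendritic cell, and mural and smooth muscle sums above those of all WT libraries. Their brown adipocyte sums lay below those of all WT libraries. Whether these lists bear on the members outside KO2 was not tested.

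**Figure D5:**
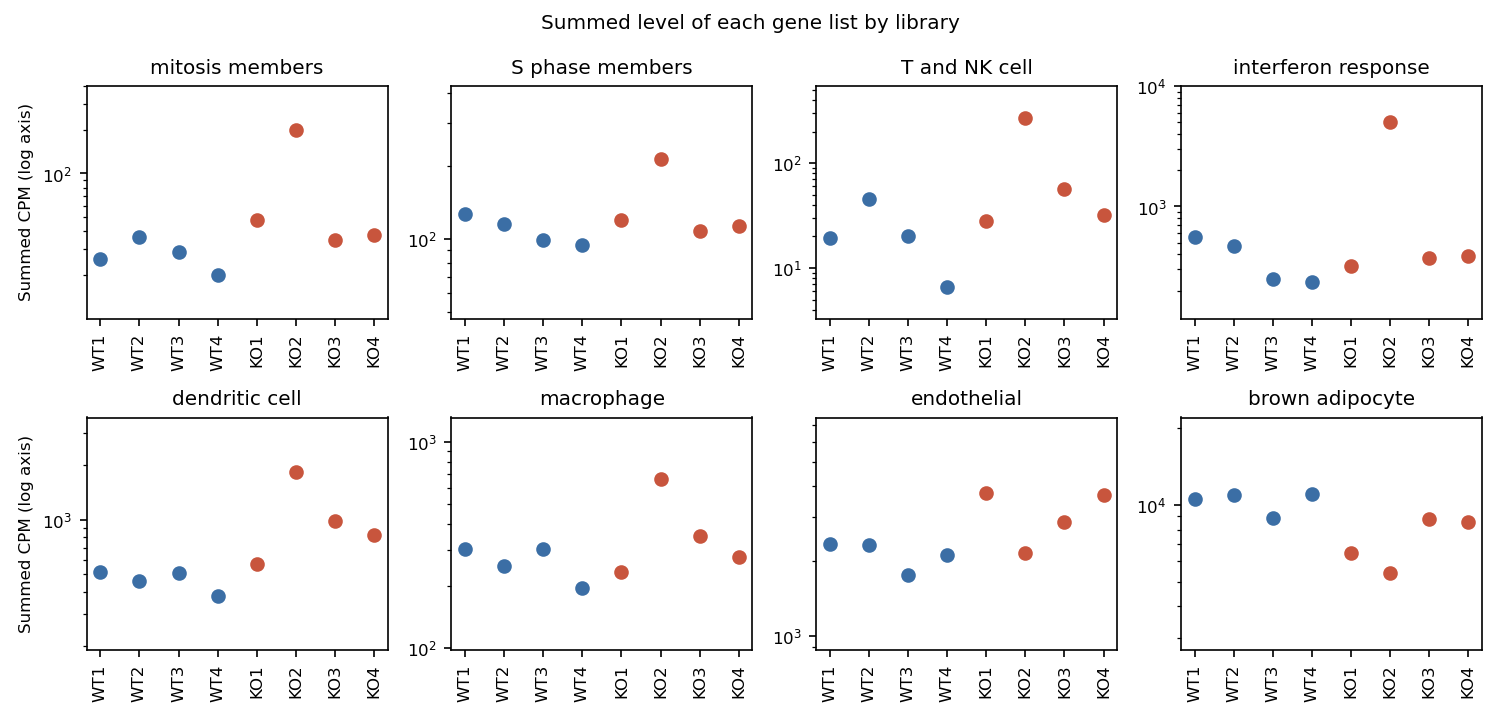
Summed CPM of the mitosis members, the S phase members and 6 marker lists in each library, on log axes, with WT in blue and KO in red. KO2 is highest for the members and for the T and NK cell, interferon response, dendritic cell and macrophage lists (272, 5020, 1830 and 658 CPM for the latter 4), and lies inside the WT range for the endothelial list.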

How the data were processed

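Polyadenylated RNA of 4 WT and 4 KO libraries was sequenced from strand-marking (dUTP) libraries, as the labels' protocols state. The deposited file gives raw read counts, 1 whole number per gene and library. Per the submitters' processing notes the build was GRCm39; the aligner, annotation and strand setting of the counting are not known from the sources used here, so reads of overlapping or antisense genes cannot be told apart. Symbols came from GENCODE M21 names for 18321 genes, and 74 had no symbol.

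Genes were kept by filterByExpr, counts were scaled by TMM, and KO was compared with WT by the robust quasi-likelihood F test of edgeR 4.0.16 (R 4.3.3) with group as the only term, on the whole table of 13901 genes and again without KO2 (14027 genes). Benjamini-Hochberg adjustment ran over all genes tested, with a threshold of 0.05. Log2 CPM used a prior count of 2. Each standard error is the log2 fold change divided by the root of its F statistic. Plots used matplotlib 3.10.9 (Python 3.11.15).

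The members, the division into S phase and mitosis genes, the marker lists and the wider lists were chosen with earlier results of these data known, so no list was tested and no p is given for a list. Named genes were the members, Fermt2, and of each wider list at most the 2 genes with the smallest p in the fit of all libraries and the 2 in the fit without KO2; Ucp1, the pseudogene copies and the first gene of a marker list were also given. Lin54, of the E2F and DREAM list, was not analysed here. Promoters were read from RefSeq on GRCm38.p6, and none of their coordinates was joined to the counts. Alternatives were other scalings and filters, DESeq2 1.42.0 on the whole table with its own filtering, limma-voom (limma 3.58.1) with and without sample quality weights, a fit that was not robust, a replicate block, each library left out, and 6 libraries without WT3 and KO2; DESeq2 without KO2 was added after seeing the data. The scripts were tested on simulated data. Totals of over 33672272 counts a library still left some members with under 10 counts in a library, and their folds are imprecise.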

Additional observations from a re-analysis of the deposited data

Results flagged for a closer look

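Within each group of 4 libraries, the highest or lowest library was set apart where its gap to the nearest other exceeded 0.829 of the group's range (Dixon's 95% value). Of 106 groups 23 stood out, 17 of them through KO2 in KO. The rule's nominal rate is about 1 in 20 groups. The genes were chosen with earlier results of these data known, so the count cannot be judged against that rate. Genes are not independent, so the 17 share a single library.

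KO2 was the highest of the 8 libraries for 33 of 35 members, and the gap rule set it apart within KO for some of them. These were 3 S phase members, Mcm2 (10.03 CPM), Rrm2 (12.85 CPM) and Ccne1 (5.563 CPM), and 13 mitosis members. Mki67 was at 44.64 CPM, Top2a at 23.68 CPM, Ccna2 at 10.86 CPM, Birc5 at 10.7 CPM and Ube2c at 9.943 CPM. Kif11 was at 9.138 CPM, Tpx2 at 8.356 CPM, Ccnb2 at 7.909 CPM, Aurkb at 6.904 CPM and Ccnb1 at 5.161 CPM. Cenpf was at 4.424 CPM, Aurka at 4.223 CPM and Cenpe at 2.927 CPM. Rbl2, a retinoblastoma family gene, was also highest there within KO, at 30.39 CPM.

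In WT, the gap rule set 1 library above the other 3 for 3 mitosis members, Mki67 in WT2 (4.543 CPM), Cdc20 in WT1 (3.001 CPM) and Aurka in WT3 (2.578 CPM). Rbl2 stood out in WT3 (35.9 CPM), Ccnd1, the gene of cyclin D1, in WT4 (5.828 CPM, the highest in WT), and Cdkn2b in WT4 (0.829 CPM, the lowest in WT). These genes outside the members were named because their values stood out.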

How the results depend on the processing

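The mitosis median lay above the S phase median under every setting run. Of 35 members, 26 never changed sign in 694 comparisons under 20 settings, of which 35 were reversed. Most settings kept KO2, and the comparisons share libraries. Without KO2, 6 members were reversed in edgeR and 6 in DESeq2, and 8 were without both WT3 and KO2. With sample quality weights 7 were reversed. With one library left out, genes called ranged from 0 to 361 (higher in KO, 0 to 238), members called stayed at 0, the mitosis median ranged from 0.43 to 1.74 and its difference from the S phase median from 0.33 to 1.19, with KO2 left out at the low end of both medians. Other scalings, filters and tests gave 882 genes (858 higher) with total library size, 1 (1 higher) with no filter, 1113 (511) with DESeq2, 911 (408) with voom quality weights, 461 (253) with 6 libraries and 1545 (809) with DESeq2 without KO2. Members called were 1 with total library size (Cdc20), 4 with DESeq2 and 1 with DESeq2 without KO2. Total library size moved the median of all genes to 0.264 and the S phase and mitosis medians to 0.71 and 1.70. The difference of the medians was 0.56 with quality weights, 0.57 with 6 libraries and 0.26 with DESeq2 without KO2, where the mitosis median was 0.35 over the members with an adjusted p. It was 0.80 without Ccna2, Mki67 and Top2a and 1.02 without Ccne1, Ccne2 and E2f1. Reversed log2 fold changes with quality weights were -0.0062 for Mcm2, -0.38 for Mcm6, -0.044 for Pcna, -0.026 for Ccne1, -0.062 for Ccnb2, -0.97 for Bub1b and -0.11 for Kif20a. With 6 libraries they were -0.14 for Mcm2, -0.21 for Mcm6, -0.33 for Pcna, -0.080 for Rrm1, -0.33 for Ccne1, -0.088 for Ccnb2, -0.90 for Bub1b and -0.018 for Birc5. DESeq2 without KO2 gave -0.26 for Mcm2, -0.20 for Pcna, -0.10 for Rrm1, -0.25 for Ccne1, -0.11 for Ccnb2 and -0.71 for Bub1b. Limma-voom gave -0.028 for Pcna and -0.073 for Bub1b, and total library size gave 0.0040 for Rbl2. With one library left out, ranges were -0.25 to 0.45 for Mcm2, -0.19 to 0.19 for Pcna, -0.090 to 0.16 for Rrm1, -0.24 to 1.13 for Ccne1, -0.10 to 1.71 for Ccnb2 and -0.69 to 0.70 for Bub1b. Over all genes tested, deviations of same-numbered WT and KO libraries from their group means correlated at -0.051, 0.0439, -0.13 and 0.224. Of these, 2 of 4 were best with their own number. Among the mitosis members, however, WT2 and KO2 had the highest mean log2 CPM of their groups (0.57 and 2.82). No label states that the numbers pair the libraries. The fit with the replicate block called 0 genes and gave medians of 0.39 and 1.11 (difference 0.73). It turned Pcna to -0.013 and Bub1b to -0.10. The block changed standard errors in both directions, to 0.45 from 1.03 for Mki67 and to 0.28 from 0.25 for Mcm3. The causes were not tested. Depth limits members with few reads, such as Aurkb, Bub1, Cenpf and Cenpe, with WT counts from 2 to 26.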
